A study of Homo sapiens with 15 samples.

Results

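U251 cells, a human glioblastoma line, were collected 24 h after a single dose of 1 Gy of ionizing radiation (IR) and were compared with unirradiated U251 cells. The comparison held 6 of the 15 RNA-seq libraries of the study, 3 libraries of each group, picked by their labelled dose and time, and it covered every gene of the count table. The study irradiated these cells with X-rays at a dose from which part of the population recovers, or at 6 Gy, and asked which transcripts change as breaks are repaired. All groups carried the same label for genotype (WT) and came from 1 cell line, with no other agent added. The control is labelled 0 h, yet its record places its harvest at 24 h after the irradiation of the other cells, so control and 1 Gy cells were matched in collection time. The libraries were described as biological replicates. The study calls its RNA-seq experiments independent, and the p-values measure the spread between these libraries.

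IR breaks DNA, and kinases activated at the breaks pass the signal to the cell cycle checkpoints and, through the kinase complex IKK, to the transcription factor NF-kB. NF-kB drives genes of chemokines, adhesion molecules and its own inhibitors, and irradiated cells can keep secreting such factors after repair. The values below describe which of these programmes, and which others, stood apart from the control 24 h after the lower dose.

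The 6 libraries held 8691338 to 11719631 counts on 22447 genes, and 12597 genes had enough counts to be tested. Values are given as CPM, the counts of a gene relative to its library's TMM-scaled total. Changes are given as the log2 fold change (log2FC) of 1 Gy minus control with its standard error (SE). The test was the quasi-likelihood test of edgeR, and its p-values were adjusted over all genes tested (Benjamini-Hochberg). Genes were called where the adjusted p was below 0.05 and the log2FC exceeded 0.5 in size. Across genes, log2 values of libraries of 1 group had correlations of 0.993 to 0.994, against 0.986 to 0.989 between the groups. Markers of a glioblastoma culture summed to 9104 to 9252 CPM in the control and 9540 to 9800 CPM after 1 Gy, while 10 of 13 blood cell markers and 6 of 8 endothelial markers stayed under 1 CPM in all 6 libraries. The glial markers GFAP, at 3.28 to 4.60 CPM, and AQP4, at 0 in all 6, were low or absent. In bulk RNA, more cells of a kind and more RNA per cell cannot be told apart.

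At 24 h after 1 Gy, 407 genes were upregulated and 161 downregulated relative to the control, which is 3.23% and 1.28% of the genes tested. These shares are the background for each list below, and the median log2 fold change over all genes tested was -0.01. The groups did not overlap for 403 of the higher and 159 of the lower genes. The same values decided the calls, so this separation adds no support to them. Its share over all genes tested is not given here. Most changes were modest, as 95 of the higher genes and 33 of the lower ones passed a log2 change of 1 in size. The genes called higher had a median control level of 8.02 CPM, those called lower 19.3 CPM, and all genes tested 34.3 CPM. The plot of fold change against level shows the 407 upregulated genes at low and at high levels. By these medians, most of them lay below the middle control level of all genes tested.

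**Figure D1:**
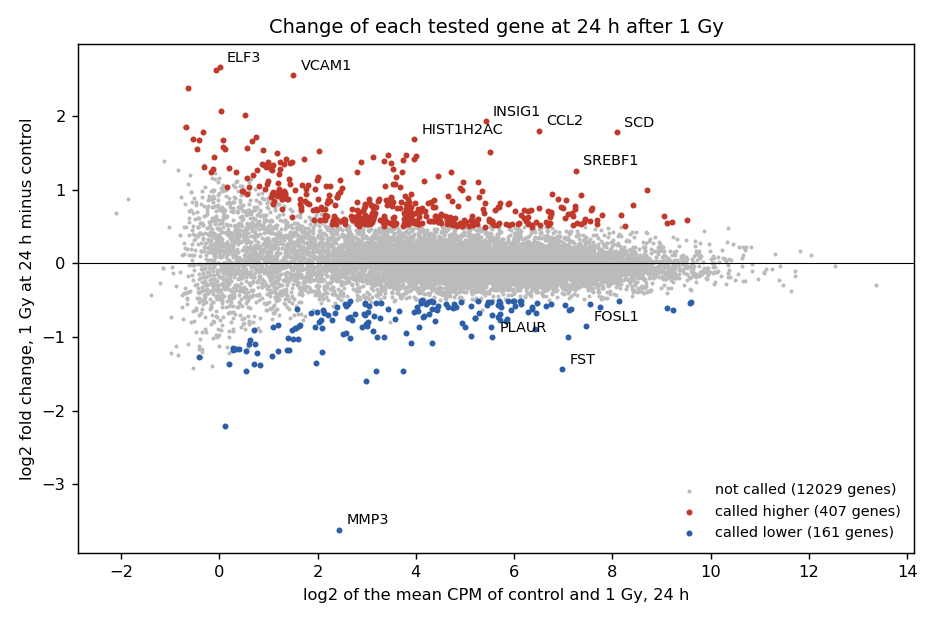
Log2 fold change of 1 Gy at 24 h minus control against the log2 of the mean CPM of both groups, 1 point per tested gene. Red points are the 407 genes called higher, blue points the 161 called lower and grey points the genes not called. MMP3 lies lowest, at -3.62, and SCD, CCL2 and INSIG1 have a log2FC between 1.79 and 1.94.

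Genes of the NF-kB pathway rose. Of 24 tested members, 9 were higher and 0 lower, with a list median of 0.20 on the log2 scale. By edgeR's quasi-likelihood test at an unadjusted p under 0.05, 1 member was lower, and DESeq2 also called 9 higher and 0 lower. The 9 included both subunits of the non-canonical dimer. RELB (chr19:45504707-45541456, hg19) measured 10.8, 11.5 and 11.2 CPM in the control libraries and 24.4, 23.5 and 25.6 CPM in the irradiated ones (log2FC 1.13, SE 0.11, adjusted p = 6.37e-07). Its partner NFKB2, made as a precursor that is cut to p52, went from 87.9, 78.2 and 80.7 to 128, 134 and 140.0 CPM (log2FC 0.70, SE 0.0734, adjusted p = 1.55e-06). In both genes each irradiated library lay above each control library. The canonical subunits were not called, with log2FC values of -0.01 for RELA, 0.07 for NFKB1 and -0.22 for REL. MAP3K14, the kinase NIK that triggers the cutting of p100, held 129, 135 and 140.1 CPM without IR and 197, 186 and 201 CPM with it (log2FC 0.53, SE 0.0689, adjusted p = 2.35e-05). It overlaps MAP3K14-AS1 on the other strand, and whether the counting used strand is not given.

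Members listed as feedback inhibitors, among them the IkB-like BCL3, made up another 4 of the 9. NFKBIA encodes the inhibitor that holds NF-kB in the cytoplasm. Its libraries gave 36.7, 37.6 and 40.1 CPM in the control and 59.3, 59.4 and 76.9 CPM after 1 Gy (log2FC 0.77, SE 0.112, adjusted p = 8.94e-05), with the third irradiated library above the other two. TNFAIP3, which encodes the ubiquitin-editing enzyme A20, rose from 10.3 ± 0.852 to 17.7 ± 2.92 CPM (SD, n = 3 each), and NFKBIE and the IkB-like BCL3 had log2FC values of 0.63 and 0.76. BIRC3, a ubiquitin ligase at the TNF receptor, was at 9.75, 10.5 and 10.3 CPM in control cells and at 17.9, 18.2 and 17.5 CPM in irradiated cells (log2FC 0.81, SE 0.102, adjusted p = 1.55e-05). TRAF1, an adaptor of the same receptors, had a log2FC of 0.69 (adjusted p = 0.00325).

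Some secreted signals to leukocytes also rose: 5 of 20 tested chemokines and cytokines were higher and 1 was lower (list median 0.44). Of the 8 chemokines, 2 were higher and 0 lower, 4 lay above 0, and the median was 0.01. Of the 12 cytokines and growth factors, 3 were higher and 1 lower (median 0.53). CXCL2, CXCL3 and CXCL6 had log2FC values of -0.94, -0.80 and -0.31 and were not called. CCL2, which attracts monocytes, had the lowest adjusted p of all genes tested, with 38, 41.8 and 40.9 CPM in the control and 142, 139 and 142 CPM after 1 Gy (log2FC 1.81, SE 0.0729, adjusted p = 1.51e-12). CSF1 and IL34 encode the ligands of the receptor that keeps macrophages and microglia alive. CSF1 was measured at 139, 140.2 and 149 CPM in the control and at 239, 230.5 and 254 CPM after 1 Gy (log2FC 0.76, SE 0.0603, adjusted p = 5.98e-08). IL34 was far lower in level, at 0.742, 0.865 and 0.735 CPM against 2.7, 2.63 and 2.42 CPM (log2FC 1.71, SE 0.281, adjusted p = 3.14e-04). Both ligands were higher in 3 of 3 irradiated libraries than in any control library. CXCL14 gave 4.24, 3.27 and 4.96 CPM in unirradiated cells and 10.3, 10.3 and 9.04 CPM in irradiated cells (log2FC 1.25, SE 0.168, adjusted p = 3.69e-05). TNFSF10, the gene of the death ligand TRAIL, had a log2FC of 0.88 (adjusted p = 0.00313). The interleukin-6 gene IL6 was not called (log2FC 0.38, adjusted p = 0.359). VCAM1, an adhesion molecule for leukocytes, reached a log2FC of 2.56 with 0.636, 1.15 and 0.643 CPM in the control libraries and 4.63, 4.58 and 5.4 CPM in the irradiated ones. At their control levels IL34 and VCAM1 could pass the count filter through irradiated libraries alone. The fold changes of both may therefore partly follow from the filter.

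Promoters of this group were read from RefSeq (GRCh38.p14) as the 250 bases before the annotated start, because members that move together may share letters there. Windows matched for 7 of the 9 NF-kB pathway genes. The NF-kB consensus, searched on both strands, was present in 4 of the 7 (BIRC3, NFKB2, NFKBIA and TNFAIP3), against 9.96% of all 35116 windows. A gene was scored if any of its windows matched, while the background counts single windows. In this and the other lists, uncalled members were not counted. The list was built from pathway genes, so its share does not bear on the response to 1 Gy. Outside this list it was in the window of VCAM1, 1 of 2 called adhesion genes. It was in 0 of 2 called chemokine and cytokine genes with a window. Among lowered genes of the BMP and activin list with a window, 3 of 5 held it (BMP6, FST and ID2). In the list of sterol regulators, uptake and efflux, 2 of 4 genes called higher with a window held it (SREBF1 and SREBF2). So did the windows of IRF1, NTN4, IGFBP6 and SMAD3, which rose, and of S1PR1, DUSP7 and HK2, which fell. The windows of NFKBIA (chr14:35404750-35404999, minus strand) and VCAM1 (chr1:100719492-100719741, plus strand) are shown 5′ to 3′ with the match in capitals, which begins 81 bases before the start in NFKBIA and 62 bases before it in VCAM1. A match is a description of letters and not of binding.
NFKBIA: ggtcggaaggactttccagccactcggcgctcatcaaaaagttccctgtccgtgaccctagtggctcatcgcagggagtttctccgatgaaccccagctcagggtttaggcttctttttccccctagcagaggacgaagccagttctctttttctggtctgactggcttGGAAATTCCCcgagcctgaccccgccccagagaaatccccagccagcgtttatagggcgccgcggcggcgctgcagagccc
VCAM1: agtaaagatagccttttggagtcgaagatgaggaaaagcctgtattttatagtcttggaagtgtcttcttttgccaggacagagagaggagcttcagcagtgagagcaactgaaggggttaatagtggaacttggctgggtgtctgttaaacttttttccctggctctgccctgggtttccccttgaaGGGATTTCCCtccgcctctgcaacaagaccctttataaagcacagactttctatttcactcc

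A few interferon-stimulated genes rose as well. Of 45 tested, 6 were higher and 0 lower (list median 0.27), and 35 of the 45 had a log2FC above 0. The quasi-likelihood test at an unadjusted p under 0.05 gave 20 higher and 3 lower, and DESeq2 called 6 and 0. IRF1, a transcription factor that NF-kB and interferon both induce, rose from 27.6 ± 3.32 to 41.7 ± 4.36 CPM (SD, n = 3 each, log2FC 0.59, adjusted p = 6.68e-04). EPSTI1 was at 18.1, 17.7 and 16.5 CPM in the control and at 30.8, 31.9 and 36.4 CPM after 1 Gy (log2FC 0.92, SE 0.0993, adjusted p = 2.31e-06). PLSCR1, a phospholipid scramblase, had a log2FC of 0.67 (adjusted p = 4.94e-07), and PARP9 and TRIM22 had 0.52 and 0.58. The classical interferon reporters were not called, with log2FC values of 0.00 for IFIT1 and 0.23 for MX1.

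The second group upregulated after 1 Gy was the sterol and lipid programme. SREBP proteins are transcription factors held in the endoplasmic reticulum by INSIG proteins while sterols are plentiful, and once released they drive genes of cholesterol and fatty acid synthesis. Of 8 tested regulators of this axis, 4 were higher and 0 lower (median 1.06). INSIG1 (chr7:155089486-155101945, hg19), both a brake on SREBP and one of its targets, held 18.9, 18.4 and 16.2 CPM in the control and 64, 67.6 and 72.6 CPM after 1 Gy (log2FC 1.94, SE 0.0945, adjusted p = 2.99e-11). SREBF1 (chr17:17714663-17740325, hg19), the gene of SREBP-1, gave 89.3, 86.2 and 93.5 CPM in unirradiated libraries and 206, 206 and 232 CPM in irradiated ones (log2FC 1.26, SE 0.0768, adjusted p = 9.85e-10). SREBF2, the gene of SREBP-2, gave 99.7, 89.1 and 93.6 and 168, 155 and 189 CPM (log2FC 0.86, SE 0.0767, adjusted p = 2.63e-07). All 3 genes thus stood above the control in every irradiated library, by 3.82-fold, 2.39-fold and 1.81-fold. The other parts of the sensor were not called, with log2FC values of -0.05 for SCAP, which escorts SREBP, and -0.13 for INSIG2. SREBF1 overlaps the RAI1 locus in the table's coordinates.

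STARD4, which carries cholesterol between membranes and was listed with the regulators, was at 6.68, 7.4 and 4.96 CPM in the control and 18.1, 15.9 and 14.5 CPM after 1 Gy (log2FC 1.36, SE 0.172, adjusted p = 1.61e-05). Of 10 genes of uptake, transport and efflux, 1 was higher and 1 lower (median -0.02). APOE, a lipid carrier, fell from 9.59 ± 0.964 to 5.32 ± 1.41 CPM (SD, n = 3 each, log2FC -0.87, adjusted p = 0.00676). The efflux pump ABCA1 had a log2FC of 0.00. 

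All 20 tested genes of cholesterol biosynthesis had a log2FC above 0, and 7 were called higher (list median 0.41). Of 12 genes of the sterol steps 6 were higher (median 0.51), and of 8 genes of the isoprenoid steps 1 was higher (median 0.21). SQLE, the squalene epoxidase, was measured at 58.5, 64.7 and 58 CPM in the control and at 91.1, 89.6 and 90.0 CPM after 1 Gy (log2FC 0.58, SE 0.0714, adjusted p = 1.21e-05), and DHCR7 and TM7SF2, both sterol reductases, had log2FC values of 0.72 and 0.69. HMGCS1, an enzyme of the early isoprenoid steps, was not called (log2FC 0.48, adjusted p = 0.00305), but it was called, at a log2FC of 0.50 to 0.52, with library totals, with upper quartile scaling and without control replicate 1 or 2.

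In fatty acid metabolism SCD, FADS2 and ACSL3 rose. Of 19 genes tested, 3 were higher and 0 lower (list median 0.12), and DESeq2 called the same numbers, while 1 gene was lower at an unadjusted p under 0.05 by the quasi-likelihood test. SCD (chr10:102106772-102124588, hg19), which makes oleate from stearate, held 123, 127 and 119 CPM in the control and 412, 381 and 476 CPM after 1 Gy (log2FC 1.79, SE 0.0888, adjusted p = 2.99e-11). FADS2, which desaturates polyunsaturated fatty acids and lies beside FADS1, was at 25.1, 23 and 22.5 CPM against 44.7, 39.3 and 46.1 CPM (log2FC 0.88, SE 0.0849, adjusted p = 5.45e-07). ACSL3, which activates fatty acids for lipid droplets, rose from 137 ± 10.1 to 208 ± 2.76 CPM (SD, n = 3 each). The other desaturases tested, FADS1, FADS3 and SCD5, had log2FC values of 0.30, 0.41 and 0.05 and were not called. FASN and ACACA, the synthase and the carboxylase that supplies it, had log2FC values of 0.12 and 0.27, neither called.

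The letters TCACNCCAC, a form of the sterol element, were searched on both strands of the RefSeq windows. They were found in the window of SREBF2 and in 0.883% of all windows, and in none of the other called genes of the sterol and fatty acid lists that had a window, which says only that these letters are absent there. The window of SREBF2 (chr22:41832855-41833104, plus strand) is printed with the element in capitals, beginning 133 bases before the start.
SREBF2: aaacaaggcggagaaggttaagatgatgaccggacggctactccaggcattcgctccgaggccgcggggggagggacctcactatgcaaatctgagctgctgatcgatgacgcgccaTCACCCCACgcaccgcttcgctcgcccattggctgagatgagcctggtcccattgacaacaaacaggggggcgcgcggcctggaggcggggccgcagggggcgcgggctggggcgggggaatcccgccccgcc

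**Figure D2:**
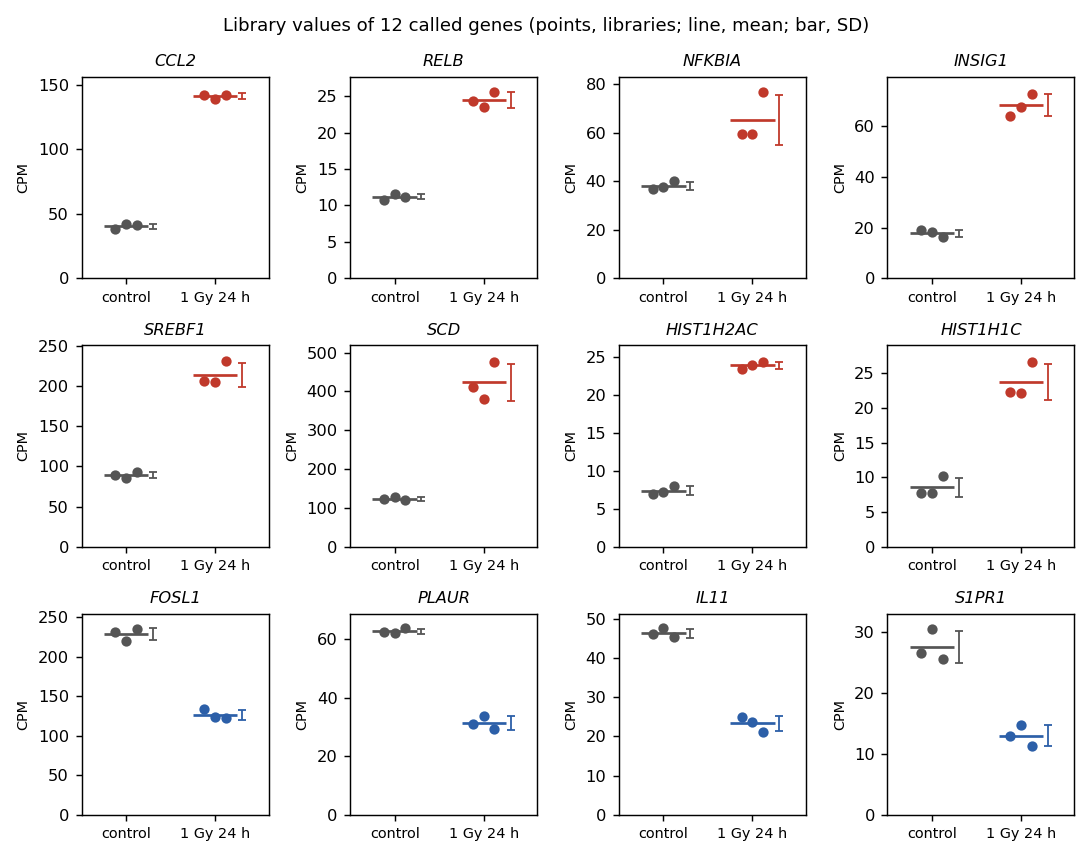
CPM of 12 called genes in the 3 control and 3 irradiated libraries. Points are libraries, horizontal lines are group means and bars are SD (n = 3). In each panel the groups do not overlap: 8 genes are higher after 1 Gy (CCL2, RELB, NFKBIA, INSIG1, SREBF1, SCD, HIST1H2AC and HIST1H1C) and 4 are lower (FOSL1, PLAUR, IL11 and S1PR1).

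Histone genes formed the third group. Transcripts of the replication-dependent histones usually end in a stem-loop without a poly(A) tail, and the libraries here were made from poly(A) RNA, so the counts cover only the polyadenylated part. Of 34 listed genes, 12 had enough counts, and 9 of these were higher and 0 lower (median of the 12, 1.15). By the quasi-likelihood test 0 were lower also at an unadjusted p under 0.05. A member low in the control could pass the count filter through irradiated libraries alone. The 9 of 12 and the median may therefore partly follow from the filter. DESeq2 called 6 higher and 0 lower. HIST1H2AC (H2AC6, chr6:26124373-26124918, hg19) was at 6.89, 7.21 and 8 CPM in the control and at 23.3, 23.9 and 24.4 CPM after 1 Gy (log2FC 1.69, SE 0.156, adjusted p = 3.43e-07). The linker histone HIST1H1C (H1-2) had 7.74, 7.78 and 10.1 CPM in unirradiated and 22.2, 22.2 and 26.7 CPM in irradiated libraries (log2FC 1.46, SE 0.132, adjusted p = 2.92e-07). For HIST1H2BK (H2BC12) the values were 6.99, 6.44 and 9.83 and 18.2, 19.1 and 18.1 CPM (log2FC 1.24, SE 0.153, adjusted p = 1.21e-05). The irradiated libraries of these 3 genes were close to one another and all above the control. Levels of the other called members were low, under 5 CPM in each library, and among them HIST1H2BJ had a log2FC of 1.32 and HIST1H4H of 2.63. HIST1H4C and HIST1H2BN had -0.48 and -0.30 and were not called. Histone genes are near-identical copies of each other, so reads may be split among them, and the values of single members are uncertain.

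Histone promoters typically hold CCAAT and TATA boxes. Of the 8 called histone genes with a window, 7 held CCAAT (either strand) and 6 held TATAAA, against 32% and 10.7% of all windows. CCAAT was also found in 4 of the 4 called cholesterol biosynthesis genes with a window and in 4 of 4 called clock genes. The window of HIST1H2AC (chr6:26123922-26124171, plus strand) holds 3 CCAAT boxes, beginning 172, 98 and 68 bases before the start, and a TATA box beginning 31 bases before it, all in capitals.
HIST1H2AC: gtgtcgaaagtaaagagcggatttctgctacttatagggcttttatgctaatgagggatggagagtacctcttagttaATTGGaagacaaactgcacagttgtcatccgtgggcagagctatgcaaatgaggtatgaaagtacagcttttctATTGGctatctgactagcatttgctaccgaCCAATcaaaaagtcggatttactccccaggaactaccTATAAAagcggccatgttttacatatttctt

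The downregulated genes included 1 subunit of the transcription factor AP-1 and 3 phosphatases of the MAP kinase pathway. FOSL1, the gene of the AP-1 subunit FRA-1, fell from 231, 220.3 and 235 CPM in the control libraries to 133, 124 and 122 CPM (log2FC -0.86, SE 0.0818, adjusted p = 5.1e-07). JUNB and JUND, other AP-1 subunits, moved the opposite way: JUNB went from 37.5, 35.1 and 39.4 to 55, 56.6 and 55.8 CPM (log2FC 0.58, SE 0.0985, adjusted p = 4.59e-04), and JUND from 61.3, 58.1 and 63.9 to 93.6, 109 and 102 CPM (log2FC 0.73, SE 0.13, adjusted p = 7.12e-04). AP-1 genes thus did not move as 1 group, with 2 of 9 higher and 1 lower. Of 23 tested ERK feedback and early genes, 3 were lower and 0 higher (list median -0.08), and all 3 encode phosphatases that switch off MAP kinases. At an unadjusted p under 0.05, 1 of the 23 was higher by the quasi-likelihood test, and DESeq2 called 3 lower and 0 higher. DUSP4 was at 68.8, 65.1 and 64.2 CPM without IR and 40.5, 40.7 and 34.6 CPM with it (log2FC -0.77, SE 0.0877, adjusted p = 4.49e-06), while DUSP5 and DUSP7 had log2FC values of -0.55 and -0.56. HBEGF, a ligand of the EGF receptor, fell from 45.9 ± 1.99 to 27.4 ± 1.58 CPM (SD, n = 3 each, log2FC -0.74, adjusted p = 4.67e-05). DUSP6 and EGR1, often used as readouts of ERK, had -0.11 and 0.10 and were not called.

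The urokinase system was split. PLAUR, the cell surface receptor of urokinase, measured 62.4, 62.2 and 63.8 CPM in the control and 31.1, 33.9 and 29.2 CPM after 1 Gy (log2FC -1.0, SE 0.0926, adjusted p = 3.43e-07), a fall by a factor of 2. Its ligand PLAU rose from 134, 136 and 145 to 192, 208 and 214 CPM (log2FC 0.56, SE 0.0758, adjusted p = 3.77e-05), and the tissue activator PLAT from 92.4, 91.8 and 100.5 to 157, 148 and 177 CPM (log2FC 0.76, SE 0.074, adjusted p = 6.37e-07). The receptor and the activators therefore moved in opposite directions in all 3 irradiated libraries. PLAU shares its locus with C10orf55 on the other strand. Of 16 tested matrix metalloproteinases and their inhibitors, MMP1 and MMP3 were lower and MMP28 was higher. MMP1, the interstitial collagenase, was low, at 2.12, 2.31 and 2.67 CPM against 0.927, 1.03 and 0.771 CPM (log2FC -1.37, SE 0.333, adjusted p = 0.00842), and both MMP1 and MMP3 overlap WTAPP1 on the other strand. MMP28 went from 7.31, 8.94 and 7.81 to 13.9, 14 and 16 CPM (log2FC 0.86, SE 0.132, adjusted p = 1.62e-04). IL11, a cytokine of the interleukin-6 family, fell from 46.2, 47.6 and 45.3 to 24.9, 23.8 and 21.2 CPM (log2FC -0.99, SE 0.124, adjusted p = 1.51e-05).

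AP-1 elements were searched as TGANTCA, which is its own reverse complement apart from the free base, in the windows of these genes. They were present in the windows of PLAUR and IL11 and absent from those of JUNB, JUND, DUSP7, HBEGF and PLAU, against a share of 6.57% of all windows. The windows of CXCL14 and SMAD3, which rose, and of FST and SPHK1, which fell, held the element too. Both sequences are given with the match in capitals, which begins 186 bases before the start of PLAUR (chr19:43670170-43670419, minus strand) and 96 bases before that of IL11 (chr19:55370464-55370713, minus strand).
PLAUR: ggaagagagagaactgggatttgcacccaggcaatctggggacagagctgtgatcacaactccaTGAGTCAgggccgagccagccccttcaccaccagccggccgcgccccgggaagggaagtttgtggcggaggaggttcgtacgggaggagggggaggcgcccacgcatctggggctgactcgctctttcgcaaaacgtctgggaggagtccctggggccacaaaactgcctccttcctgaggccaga
IL11: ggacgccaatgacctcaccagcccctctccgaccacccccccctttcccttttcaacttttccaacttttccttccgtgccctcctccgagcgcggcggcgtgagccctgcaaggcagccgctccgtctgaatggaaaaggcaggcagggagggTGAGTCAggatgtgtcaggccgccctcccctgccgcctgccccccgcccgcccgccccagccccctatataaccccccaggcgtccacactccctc

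Ligands and antagonists of the BMP and activin pathways were among the changed genes. Of 25 tested genes, 6 were lower and 2 higher (list median -0.06), and 1 was higher when control replicate 1 was left out. NOG, the BMP antagonist noggin, was at 6.25, 5.96 and 4.6 CPM in the control and 1.52, 2.98 and 2.2 CPM after 1 Gy (log2FC -1.36, SE 0.246, adjusted p = 8.05e-04). FST, the activin antagonist follistatin, had a log2FC of -1.44. Of the ligands, BMP4 was higher (log2FC 0.65, adjusted p = 0.00543) and BMP6 lower (log2FC -0.64, adjusted p = 0.00107). ID2, a target of BMP signalling that blocks basic helix-loop-helix factors, fell from 36.1, 44.3 and 44.7 to 27.6, 26.9 and 29.6 CPM (log2FC -0.57, SE 0.1, adjusted p = 5.72e-04), whereas ID1 and ID3 had -0.46 and -0.44 and were not called, although ID1 was called without 1 Gy replicate 3 (-0.51). INHBA, the activin subunit, had 0.00. BMP6 overlaps TXNDC5 in the table's coordinates.

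Guidance cues of axons and vessels made a list with changes in both directions, 6 of 27 higher and 2 lower (median 0.20). The laminin-related NTN4 rose from 20.1, 19.8 and 18.8 to 41.1, 42.1 and 43.7 CPM (log2FC 1.11, SE 0.0981, adjusted p = 2.49e-07). SEMA3C, a secreted semaphorin known from glioblastoma stem cells, was at 106, 112 and 98.2 CPM in the control and 174, 163 and 167 CPM after 1 Gy (log2FC 0.67, SE 0.0815, adjusted p = 1.03e-05). SEMA7A, a membrane-anchored semaphorin, fell from 22, 20.4 and 18.5 to 10.7, 9.27 and 8.48 CPM (log2FC -1.08, SE 0.144, adjusted p = 3.03e-05), and SLIT2, a ligand of ROBO receptors, from 98.8, 102 and 86.5 to 63.9, 60.9 and 56.7 CPM (log2FC -0.66, SE 0.0949, adjusted p = 7.81e-05). None of these 4 had overlapping groups. NTN1 and EFNA1 had log2FC values of 0.64 and 0.71. EPHB2, an ephrin receptor, was lower (log2FC -0.54, adjusted p = 6.68e-05). In the sphingosine-1-phosphate system, which also guides cell movement, 2 of 9 genes were lower and 0 higher, with 0 higher also at an unadjusted p under 0.05 in the quasi-likelihood test and in DESeq2. They were the receptor S1PR1, at 26.5, 30.5 and 25.5 against 13, 14.6 and 11.2 CPM (log2FC -1.09, SE 0.14, adjusted p = 2.07e-05), and the kinase SPHK1, which makes the ligand (log2FC -0.73, adjusted p = 1.23e-04).

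Matrix genes were mixed. Of 26 collagens tested, 2 were higher and 3 lower (list median 0.27), and 4 were higher without 1 Gy replicate 2. The fibrillar COL5A2 rose from 84.1, 84.6 and 82.3 to 161, 141 and 159.8 CPM (log2FC 0.88, SE 0.103, adjusted p = 6.58e-06). COL13A1 and COL17A1, membrane-spanning collagens, and COL12A1, a collagen of fibril surfaces, had log2FC values of -0.95, -0.69 and -0.74. WNT7B, a Wnt ligand of vessel growth in the brain, rose from 29.4, 26.6 and 25.5 to 54.6, 46.9 and 51.2 CPM (log2FC 0.91, SE 0.11, adjusted p = 1.01e-05), while DKK1, a Wnt inhibitor, fell from 638, 684 and 692 to 424, 451 and 447 CPM (log2FC -0.61, SE 0.0559, adjusted p = 3.41e-07). Of 27 Wnt genes, 2 were higher and 2 lower. Without control replicate 2, 1 was higher, and without 1 Gy replicate 3, 1 was lower.

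No gene of the list for G2 and mitosis or of the list for G1/S and DNA replication was called at this dose and time. Of 48 G2 and mitosis genes, edgeR's quasi-likelihood test and DESeq2 each called 0 higher and 0 lower. The list median was -0.19, 5 of the 48 lay above 0, and before adjustment 31 had p under 0.05 on the lower side and 0 on the higher side. Over all 12597 genes tested, 1636 were lower and 1748 higher at that p. PLK1, the Polo-like kinase of mitosis, had 302, 305 and 348 CPM in the control and 260.2, 263 and 263 CPM after 1 Gy (log2FC -0.28, SE 0.0646, adjusted p = 0.00561), so its p passed and its size did not. CCNB1, CDC20, KIF23 and PRC1 had log2FC values of -0.19, -0.19, -0.17 and -0.19, and PTTG1 had 0.11. Of 52 genes of G1/S and DNA replication, both tools called 0 in either direction, and before adjustment 5 had p under 0.05 on the higher side and 8 on the lower side.

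Of the genes whose chromosome contacts the study followed, PRSS35, which encodes a serine protease-like protein, rose from 20.1, 24.6 and 25.6 to 62, 68.1 and 72.3 CPM (log2FC 1.52, SE 0.113, adjusted p = 2.12e-08). TRIM29, a ubiquitin ligase, went from 1.27, 1.06 and 1.29 to 1.94, 3.09 and 3.97 CPM (log2FC 1.27, SE 0.328, adjusted p = 0.0132), and its adjusted p was 0.0600 without control replicate 2 and 0.0832 without 1 Gy replicate 3. BTG2, an antiproliferative gene, held 3.92, 5.19 and 4.87 CPM and 6.49, 6.29 and 8.37 CPM (log2FC 0.58, SE 0.177, adjusted p = 0.0334). This call was lost without control replicate 1 (adjusted p = 0.127), 2 (0.0514) or 3 (0.0699) or 1 Gy replicate 3 (0.16), and with 13 libraries (0.0543), without the control and the 6 h library that the authors' comparison table omits. PPIB, a housekeeping cyclophilin, was at 150.5, 177 and 191 CPM in the control and 153, 175 and 192 CPM after 1 Gy (log2FC 0.00, adjusted p = 0.992). HCRTR2 had too few counts to be tested.

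**Figure D3:**
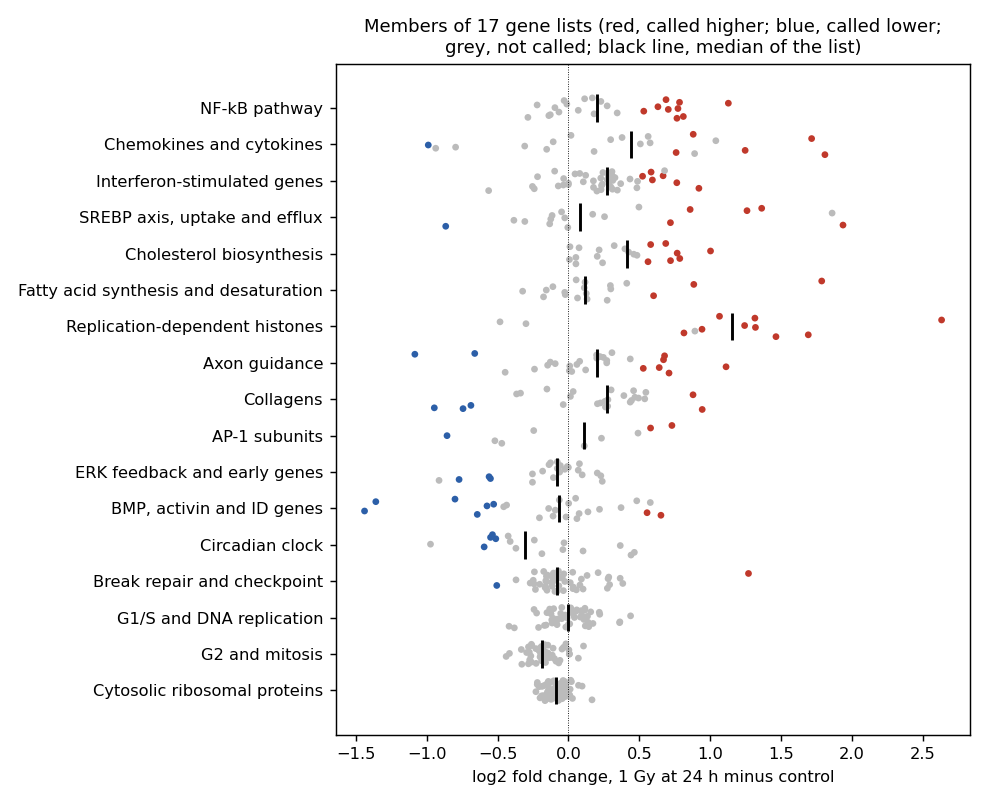
Log2 fold change of 1 Gy at 24 h minus control for the tested members of 17 gene lists, 1 point per gene. Red and blue points are genes called higher and lower, grey points were not called, and black lines are list medians. Histones have the highest median (1.15), over members that passed the count filter. All 20 cholesterol genes lie above 0, and no mitotic gene is called.

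Clock and metabolic genes gave smaller sets. Of 16 circadian clock genes, 4 were lower and 0 higher (median -0.31), with 3 higher at an unadjusted p under 0.05 by the quasi-likelihood test and 0 higher by DESeq2. CRY2, a repressor of the clock, fell from 21.2, 18.2 and 18.9 to 12.7, 13.7 and 12.1 CPM (log2FC -0.59, SE 0.124, adjusted p = 0.00274), and 2 were lower when control replicate 1 or 1 Gy replicate 2 was left out. Both groups were collected at the same time after irradiation. In the hypoxia and glycolysis list, 2 of 37 were higher and 1 lower: BNIP3L, a mitophagy receptor, rose from 44.2, 42.3 and 41.8 to 71.9, 82.1 and 73.2 CPM (log2FC 0.82, SE 0.0892, adjusted p = 2.36e-06), DDIT4, an inhibitor of mTORC1, from 21.4, 20.9 and 21.8 to 38, 34 and 38 CPM (log2FC 0.78, SE 0.0836, adjusted p = 2.21e-06), and hexokinase HK2 fell from 25.8, 25.8 and 21.2 to 16.7, 14.2 and 16.4 CPM (log2FC -0.61, SE 0.115, adjusted p = 0.00108). VEGFA had 0.32 and was not called. Of 74 cytosolic ribosomal protein genes, both tools called 0 in either direction, and before adjustment 2 had p under 0.05, both lower. Of 29 proteasome genes the same tests called 0, with 7 lower and 1 higher at that p.

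Time and dose were read from the other libraries of the study. At 6 h after 1 Gy SREBF1 was at 80.7, 79.8 and 85.5 CPM, INSIG1 at 16.8, 17.1 and 19.3 CPM, CCL2 at 36.4, 38.7 and 38 CPM, FOSL1 at 222, 252 and 209 CPM and PLAUR at 59.6, 75.5 and 67.4 CPM. In these 5 genes the 6 h libraries lay nearer to the control than to the 24 h libraries, and the 6 h group was not tested against the control. From 6 h to 24 h after 1 Gy, 555 genes were higher and 263 lower, or 4.41% and 2.09% of those tested. That comparison shares the 24 h libraries with the comparison against the control, and its log2 values were 1.39 for SREBF1, 1.94 for INSIG1, 1.90 for CCL2, -0.85 for FOSL1 and -1.10 for PLAUR (adjusted p from 7.11e-13 to 4.5e-07). HIST1H2AC was at 3.16, 4.5 and 5.74 CPM at 6 h, below each control library.

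After 6 Gy at 24 h, the test called 26 genes higher and 19 lower relative to 1 Gy at 24 h, or 0.206% and 0.151% of those tested. SREBF1 measured 262, 213 and 248 CPM, INSIG1 65.1, 77.5 and 73.9 CPM, SCD 391, 401 and 435 CPM and PLAUR 31.7, 28.1 and 32.7 CPM after 6 Gy, and none of them was called between the doses (log2 differences 0.17, 0.09, -0.05 and -0.02, standard errors 0.0738, 0.0835, 0.0845 and 0.0976). CCL2 was lower after the higher dose, at 87.2, 88.2 and 102 CPM (log2 difference -0.61, standard error 0.0687, adjusted p = 7.93e-05), though still above each control library. CXCL14 was at 6.29, 5.61 and 5 CPM after 6 Gy (log2 difference -0.81, adjusted p = 0.012). CDC25C, the phosphatase that activates CDK1, was at 24.9, 29.7 and 29.7 CPM in the control, 28.1, 29.9 and 30.9 CPM after 1 Gy and 17.4, 22.5 and 21.3 CPM after 6 Gy (log2 difference between the doses -0.53, adjusted p = 0.0126). Of the 48 mitotic genes 5 were lower after 6 Gy than after 1 Gy, with a list median of -0.31 for the log2 difference, and 2 were lower without 1 Gy replicate 2. FOSL1 was at 109.7, 89.4 and 90.6 CPM (log2 difference -0.39, adjusted p = 0.0192), under the fold needed for a call. Without 6 Gy replicate 1 the counts of genes higher and lower after 6 Gy were 3 and 10, without 1 Gy replicate 2 they were 6 and 9, without 6 Gy replicate 3 they were 14 and 12, and without 6 Gy replicate 2 the count higher was 46.

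**Figure D4:**
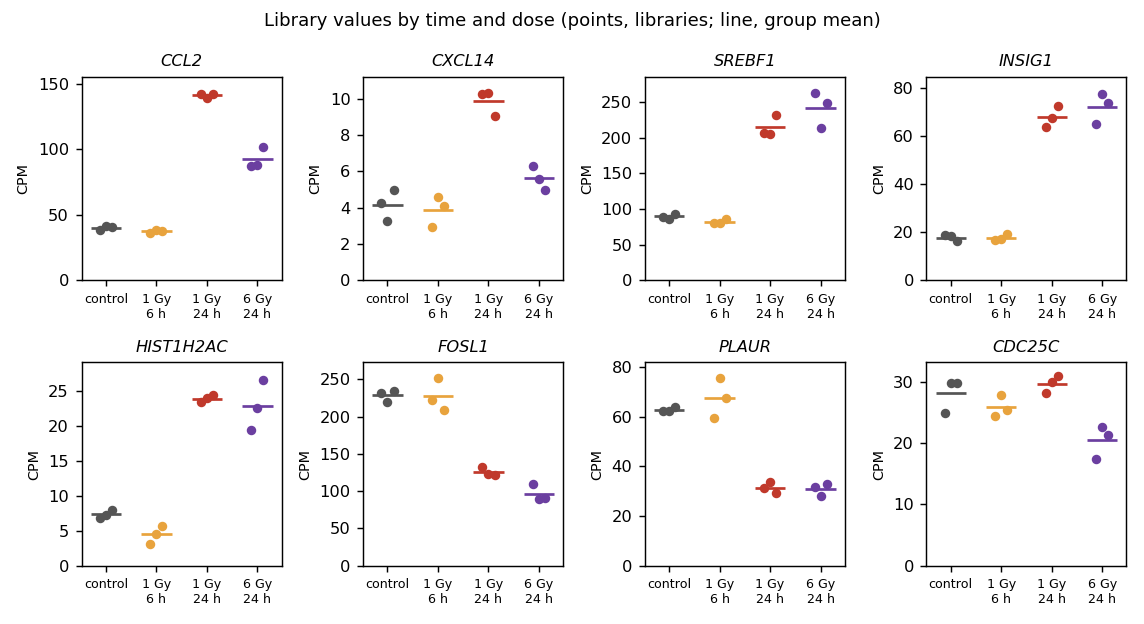
CPM of 8 genes in the control, at 6 h and 24 h after 1 Gy and at 24 h after 6 Gy. Points are libraries and lines are group means (n = 3 each). SREBF1, INSIG1, HIST1H2AC, FOSL1 and PLAUR sit near the control or below it at 6 h and lie apart from it at 24 h after either dose, whereas CCL2, CXCL14 and CDC25C are lower after 6 Gy than after 1 Gy.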

How the data were processed

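Poly(A) RNA of U251 cells had been prepared with the NEBNext Ultra kit and sequenced on a HiSeq 2000. The authors aligned reads to hg19 with TopHat and deposited raw read counts per gene from HTSeq. Their versions are not given. A deposited table of the authors' own comparisons (fold changes and p-values) was not used. Depth was 8691338 to 11719631 counts in the 6 libraries compared, so genes with few counts have wide errors.

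Counts of all 15 libraries were fitted in 1 model over the 5 groups with edgeR 4.0.16 (R 4.3.3, limma 3.58.1). Genes were kept by filterByExpr (minimum count 10, total 15, large group 10, proportion 0.7), libraries were scaled by TMM, and the quasi-likelihood test gave 1 Gy at 24 h against control, 6 Gy against 1 Gy at 24 h, and 24 h against 6 h after 1 Gy. Benjamini-Hochberg adjustment covered the 12597 genes tested. Residual degrees of freedom were 10, prior ones 10.3, and the biological coefficient of variation 7.19%. Standard errors are the absolute log2 fold change over the root of the F statistic. The procedure was tested on simulated data. Calls needed an adjusted p below 0.05 and a log2FC above 0.5 in size, thresholds taken from the study's methods.

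The comparison and the 46 gene lists (1175 members, 998 tested) were chosen with earlier results of these data known, and the lists are described by counts and medians. Named genes come from a rule: in each direction, the 20 called genes of greatest log2FC at a mean of at least 1 CPM with no overlap, up to 5 called members of each list by adjusted p, the 3 members of each list with the highest level, and genes that the study names. Part of these is given, some genes are not reported here, and list members beyond the rule were picked after their values were seen. Replicate numbers were checked as pairs: the correlations of same-numbered libraries' deviations were 0.248, 0.007 and 0.202, against -0.278 to 0.074 for unlike numbers. The main fit used no pairing, and a replicate block was run as an alternative. Alternatives were RLE, library totals and upper quartile scaling, no filter, DESeq2 1.42.0, a filter at 1 CPM in 3 libraries, 13 libraries (without the control and the 6 h library that the authors' comparison table omits), the replicate number as a block, only the libraries compared, no minimum fold change, and each library left out. Promoter windows are RefSeq's, with older histone symbols matched to current ones. Figures were drawn with matplotlib 3.10.9 in Python 3.11.15.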

Additional observations from a re-analysis of the deposited data

Results flagged for a closer look

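The response of 4 named genes at 24 h differed between 6 Gy and 1 Gy by edgeR's quasi-likelihood test of that difference with Benjamini-Hochberg adjustment. The log2 difference of CCL2 was -0.61 (adjusted p = 7.93e-05), with 142, 139 and 142 CPM after 1 Gy and 87.2, 88.2 and 102 CPM after 6 Gy, and the call held with each of the 6 libraries left out. For CXCL14 the difference was -0.81 (adjusted p = 0.012), and the adjusted p was 0.0529 without 1 Gy replicate 1, 0.0782 without 1 Gy replicate 2 and 0.0727 without 6 Gy replicate 3. CDC25C differed by -0.53 (adjusted p = 0.0126), and the adjusted p was 0.0782 without 1 Gy replicate 2 and 0.101 without 6 Gy replicate 1. KIF23, a kinesin of cytokinesis, differed by -0.51 (adjusted p = 3.35e-04), with 219, 245 and 224 CPM after 1 Gy and 155, 169.8 and 159 CPM after 6 Gy. This difference fell under the fold threshold without 1 Gy replicate 2 (-0.46), 6 Gy replicate 1 (-0.47) or 6 Gy replicate 3 (-0.50), and with upper quartile scaling (-0.49) or library totals (-0.47).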

How the results depend on the processing

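Of 84 named genes called at 24 h after 1 Gy, 82 kept their call in every alternative run that gave them a value. The other 2 lost it in at least 1, and none changed direction. Many named genes were picked for a low adjusted p or a large change, so this stability partly follows from the choice. ELF3 and HIST1H4H had a value in 14 of 15 runs. HMGCS1 and ID1 gained a call in at least 1. The counts against the control (407 higher, 161 lower) stayed within 1.5 times under each scaling, filter, tool and set of libraries, and ran from 328 to 387 and from 136 to 166 with 1 library left out. Without a minimum fold change they were 907 and 749, for 6 Gy against 1 Gy 95 and 151, and for 24 h against 6 h 1275 and 1199. Leaving out 1 library gave 3 to 46 higher and 9 to 27 lower genes for 6 Gy against 1 Gy, and 477 to 660 and 216 to 314 for 24 h against 6 h. For 6 Gy against 1 Gy, library totals and no filter each gave 40 higher genes. The 13 libraries gave 405 and 157 against the control. Of all 407 and 161 called genes, 299 to 338 and 120 to 134 kept their call with 1 library left out. Upper quartile scaling and library totals put the median of all genes at 0.01 and 0.02 and the share of higher calls at 75.6% and 76.0%, against 71.7%. Control replicates 1 and 3 correlated best with the 1 Gy library of their own number (0.248 and 0.202). Control replicate 2 correlated best with 1 Gy replicate 1 (0.034, against 0.007 for its own number). A shared effect of the replicate number is thus not excluded. A replicate block gave 444 and 179 genes against the control, 57 and 25 for 6 Gy against 1 Gy, and 580 and 279 for 24 h against 6 h. The cause of these shifts was not tested. At this depth, members under about 1 CPM in both groups could not be judged. Genes under about 1 CPM in 1 group could pass the count filter through other libraries. Their fold changes may partly follow from the filter.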

Other observations

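Some of the largest fold changes belonged to genes at about 1 CPM that are markers of other cell types. ELF3, an epithelial transcription factor, was at 0.106, 0.192 and 0.46 CPM in the control and 1.35, 1.6 and 2.31 CPM after 1 Gy (log2FC 2.67, SE 0.458, adjusted p = 5.01e-04), and ESRP1, an epithelial splicing factor, at 0.954, 0.288 and 1.01 and 2.36, 2.63 and 2.2 CPM (log2FC 1.66, SE 0.319, adjusted p = 0.00137). At such control levels both genes could pass the count filter through irradiated libraries alone. Their fold changes may therefore partly follow from the filter. The neurofilament gene NEFL rose from 167, 173 and 174 to 274, 258 and 275 CPM (log2FC 0.65, SE 0.0587, adjusted p = 2.74e-07). Summed over the listed markers, epithelial genes ran from 147.0 to 160.4 CPM in the control and 166 to 177 CPM after 1 Gy, neuronal genes from 205 to 211 CPM and 306 to 325 CPM, and blood cell genes from 2.33 to 3.13 CPM and 4.01 to 5.14 CPM. Most of the neuronal sum was NEFL. Of 6 epithelial markers tested, 1 was called higher and 4 lay above 0, and of 5 neuronal markers 1 and 4. Of 3 blood cell markers tested, 1 was called higher and 3 lay above 0, while DESeq2 called 0 higher. The called one was ITGAM, at a mean of 0.361 CPM in the control and 1.15 CPM after 1 Gy (log2FC 1.68). EPCAM and CLDN3 were at 0 in all 6 libraries. CLDN4 was at 9.24 to 10.6 CPM in the control and 6.67 to 9.43 CPM after 1 Gy, and GAD1 at 7.90 to 9.65 and 7.88 to 8.28 CPM. The part of other cells in these values was not tested.

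Among the most strongly lowered genes outside the lists were NAV3, a microtubule-associated protein, at 18.7, 21.3 and 18.6 CPM against 7.84, 6.75 and 6.39 CPM (log2FC -1.47, SE 0.144, adjusted p = 6.37e-07), and CSPG5, a neural chondroitin sulfate proteoglycan, at 5.51, 6.34 and 5.97 against 2.36, 2.86 and 2.53 CPM (log2FC -1.21, SE 0.188, adjusted p = 1.82e-04). The aldo-keto reductase AKR1B10 fell from 12.6, 11.9 and 12.6 to 5.9, 5.61 and 7.16 CPM (log2FC -0.99, SE 0.138, adjusted p = 5.36e-05), and MCOLN1, a calcium channel of lysosomes, from 46.6, 43 and 54.2 to 29.9, 29.6 and 30.6 CPM (log2FC -0.67, SE 0.0956, adjusted p = 6.8e-05). Genes with names of noncoding RNAs made up 2.53% of the genes tested, 6.14% of those higher after 1 Gy and 3.73% of those lower.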
